A study of Mus musculus with 6 samples.

Results

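Cells take up iron, keep the surplus in a protein cage and export what they do not need, and 10 mouse genes that carry out or sense these steps are described here. They are Fth1, Ftl1, Ncoa4 and Pcbp1 for storage, Tfrc, Slc11a2, Slc11a1 and Slc40a1 for transport, and Ireb2 and Aco1 for sensing. They were chosen by name, and all 10 were found among the 52636 genes of each table. RNA came from RAW264.7 cells, a transformed macrophage line from a BALB/c mouse, grown in high glucose medium with fetal bovine serum. The C2S group, with 3 libraries, received the extract at 150 µg/ml for 24 h. The PM_control group, also with 3 libraries, received 0 µg/ml. What C2S and PM stand for is not spelled out in the labels, and RAW264.7 is a single line carried in culture rather than tissue macrophages. Nothing in the labels says that the libraries of a group came from separate cultures, so p-values measure only the spread between these libraries, which may be technical.

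Iron enters most cells bound to transferrin, which the transferrin receptor carries into endosomes, and leaves the endosome through a divalent metal transporter. Ferritin, a shell of heavy and light chains, holds the surplus, and ferroportin is the exporter through which macrophages return iron from old red cells to the blood. When iron is scarce, the iron regulatory proteins encoded by Aco1 and Ireb2 bind short RNA hairpins called iron-responsive elements. Binding near the 5′ end of a transcript blocks its translation, and binding in the 3′ UTR of the transferrin receptor transcript protects it from decay. Much of this control therefore acts on protein rather than on RNA levels, and RNA alone was measured here.

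The hairpins of these transcripts share a loop, shown first because it is what ties ferritin, ferroportin and the transferrin receptor to the same sensors. The pattern searched was C, any 5 bases, the loop CAGTGN, and 5 bases that pair with the first 5 by A-T, G-C or G-T, on the sense strand of protein-coding transcripts of GENCODE M21. It was found in 4 of the 10 genes, against 288 of 21899 protein-coding genes (1.32%). These 4 are among the transcripts already known to carry the element, so the comparison is not a test. A match in the 5′ UTR occurred in 28 genes (0.128%) and one in the 3′ UTR in 127 genes (0.58%). The matches are printed 5′ to 3′ with the loop in capitals. Coordinates are on GRCm38.
Fth1, 5′ UTR, chr19:9982732-9982760, plus strand: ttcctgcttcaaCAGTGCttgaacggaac
Ftl1, 5′ UTR, chr7:45459779-45459807, minus strand: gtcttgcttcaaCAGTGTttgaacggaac
Slc40a1, 5′ UTR, chr1:45925465-45925493, minus strand: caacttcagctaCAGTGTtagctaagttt
Tfrc, 3′ UTR, chr16:32631219-32631247, plus strand: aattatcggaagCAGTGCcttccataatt
Tfrc, 3′ UTR, chr16:32631598-32631626, plus strand: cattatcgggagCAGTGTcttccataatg
Tfrc, 3′ UTR, chr16:32631663-32631691, plus strand: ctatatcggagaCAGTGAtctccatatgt
Tfrc, 3′ UTR, chr16:32631710-32631738, plus strand: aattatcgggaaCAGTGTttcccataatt

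The loop began 126 bases before the start codon in Fth1, 164 bases before it in Ftl1 and 218 bases before it in Slc40a1. In Tfrc the 4 loops began 895, 1274, 1339 and 1386 bases past the stop codon. Slc11a2, which is also known for such an element, held no match in the 2 transcripts searched, and nothing about binding follows from that. The other 5 genes, Slc11a1, Ireb2, Aco1, Ncoa4 and Pcbp1, held no match.

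**Figure D1:**
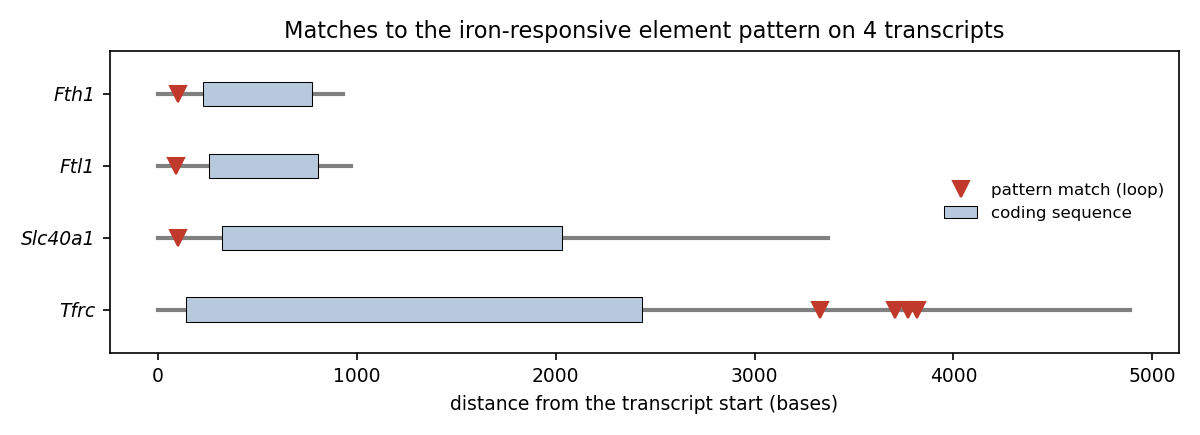
Position of the iron-responsive element pattern on 4 transcripts, with distance from the transcript start in bases on the horizontal axis. Triangles mark loop starts, boxes the coding sequence and grey lines the whole transcript: 1 match lies ahead of the coding sequence in Fth1, Ftl1 and Slc40a1, and 4 lie behind it in Tfrc.

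Library totals ran from 8594485 to 10491307 expected counts with C2S and from 9149574 to 10665869 in PM_control, and a floor of 3 counts corresponded to 0.281 to 0.349 CPM, counts scaled to a common library total. All 10 macrophage markers had counts, and their summed TPM, a level scaled for transcript length and depth, was 7006 to 7284 with C2S and 6817 to 7142 in PM_control. The 4 hepatocyte markers were at 0, and erythroid markers summed to 0.09 to 1.28 TPM with C2S and 0.86 to 1.18 TPM in PM_control, with Hbb-bt and Gata1 among those at 0. Granulocyte markers summed to 2.49 to 6.18 TPM with C2S and 0 to 3.7 TPM in PM_control, and lymphocyte markers to 1.15 to 2.61 TPM with C2S and 0 to 0.61 TPM in PM_control. Fibroblast markers reached at most 0.22 TPM with C2S and 0.03 TPM in PM_control. The part of these traces in the results was not tested.

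Of the 10 genes, 7 passed the test, edgeR's quasi-likelihood F test at a Benjamini-Hochberg adjusted p of 0.05 over the 11561 genes tested. Of all genes tested, 55.4% passed it, so the share of iron genes called says little by itself. Tfrc, Slc11a2, Slc11a1, Fth1 and Ftl1 were higher with C2S and Pcbp1 and Ireb2 lower, against 27.0% of all genes higher and 28.4% lower. Ncoa4, Aco1 and Slc40a1 did not pass. TMM-scaled CPM of the groups did not overlap for 7 of the 10 genes, against 61.1% of all genes tested. The median log2 fold change was 0.31 over the 10 genes and -0.0021 over all genes, and the median size of the change was 0.34 and 0.34. None of the 10 changed by 2-fold in the fit, and of the 11561 genes tested 1678 were called with a change of at least 2-fold.

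Whether a gene was called depended on the scale for some of the 10. With library sizes alone in place of TMM factors, the median of all genes moved to -0.09 and the share of calls that were higher to 38.3%, against 48.8% with TMM. On log2(TPM + 1) with limma the median was -0.09 and that share 35.9%, and with a pseudocount of 0.1 the median moved to -0.10. In bulk RNA, fewer cells of a type and less RNA per cell cannot be told apart.

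**Figure D2:**
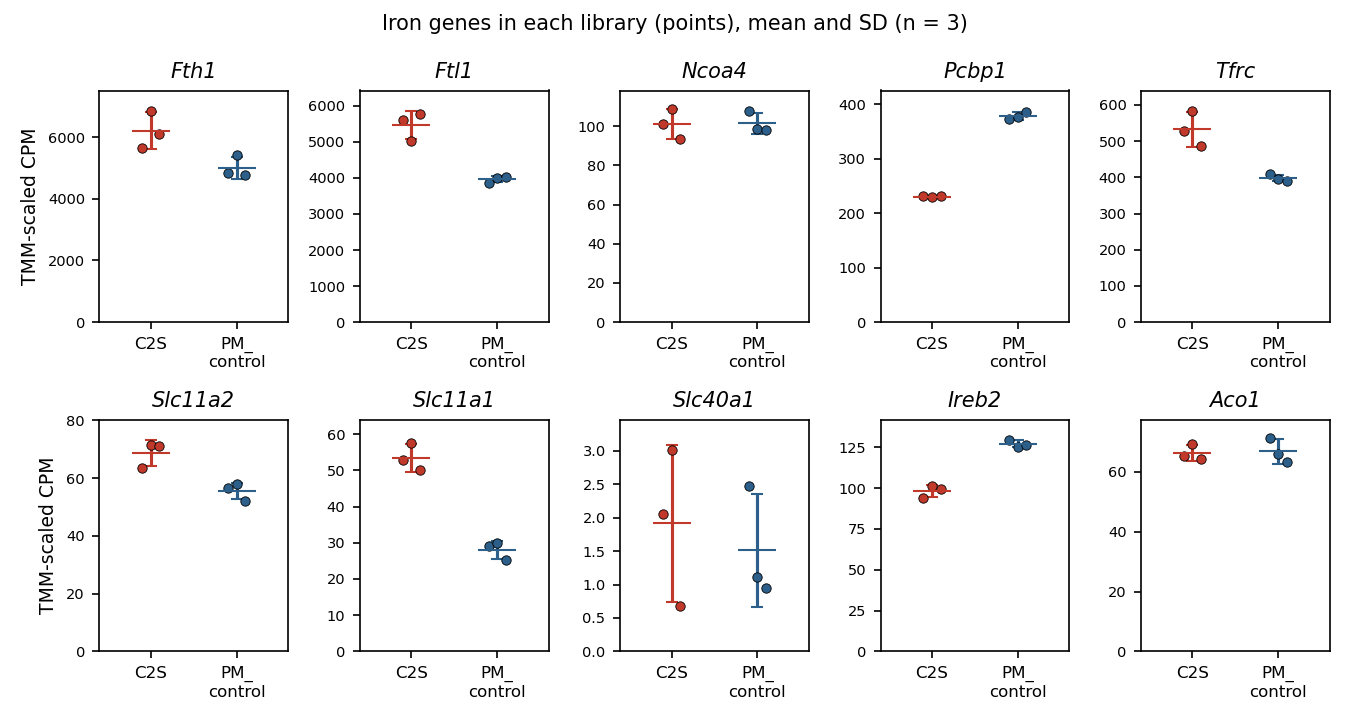
TMM-scaled CPM of the 10 genes in each of 3 C2S and 3 PM_control libraries (points), with the group mean and SD, each axis starting at 0. The C2S points lie above the PM_control points for Fth1, Ftl1, Tfrc, Slc11a2 and Slc11a1, below them for Pcbp1 and Ireb2, and among them for Ncoa4, Slc40a1 and Aco1.

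Ferritin was the most abundant product of these genes. Fth1 (ENSMUSG00000024661, chr19:9980598-9985098, plus strand), the heavy chain with the ferroxidase centre, stood at 13292, 16053 and 14101 TPM with C2S, against 12276, 13676 and 11905 TPM in PM_control, and ranked 1 among all genes in every library. On the TPM scale the groups overlapped, since C2S replicate 1 lay below PM_control replicate 2. As TMM-scaled CPM, Fth1 was at 5653, 6845 and 6111 with C2S and at 4838, 5411 and 4767 in PM_control, with no overlap. The means were 6203 ± 601 and 5006 ± 353 CPM (SD, n = 3 each). This gave a log2 fold change of 0.31 ± 0.08 (SE; 95% interval 0.14 to 0.47; edgeR adjusted p = 0.00293). On log2(TPM + 1) it was 0.20, with a limma adjusted p of 0.131, so the call for Fth1 holds on counts but not on TPM.

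Ftl1 (ENSMUSG00000050708, chr7:45457944-45459884, minus strand), the light chain that aids mineral formation inside the shell, changed more clearly. It had 11257, 10116 and 11399 TPM with C2S, against 8414, 8613 and 8611 TPM in PM_control. Every C2S library exceeded every PM_control library, and its rank among all genes was 2 in each C2S library and 3, 4 and 3 in the PM_control libraries. In CPM the means were 5463 ± 386 with C2S and 3962 ± 83.9 in PM_control (SD, n = 3 each), a log2 fold change of 0.46 ± 0.07 (SE; 95% interval 0.32 to 0.61; edgeR adjusted p = 2.05e-05).

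The value for Ftl1 is uncertain because 26.5% of its exon length is shared with Gm10252, a predicted gene on the opposite strand, and the strand setting of the counting is not given in the sources used here. Gm10252 held 6527, 5857 and 7045 expected counts with C2S and 6067, 4497 and 5850 in PM_control, which is 11.4% to 15.2% of the Ftl1 count. It was itself higher with C2S, with 714 ± 78.8 CPM against 542 ± 80.6 CPM in PM_control (SD, n = 3 each; log2 fold change 0.40, edgeR adjusted p = 0.00181). The copy Ftl1-ps1 averaged 59.9 ± 9.57 CPM with C2S and 41.1 ± 4.56 CPM in PM_control (SD, n = 3 each; log2 fold change 0.55, edgeR adjusted p = 0.000498). The 6 annotated pseudogenes of Ftl1 that align to it held at most 8.01 counts in a library, and the 1 such copy of Fth1 held 0. Together, Fth1 and Ftl1 made up 2.45%, 2.62% and 2.55% of all TPM with C2S, against 2.07%, 2.23% and 2.05% in PM_control.

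Ncoa4 (ENSMUSG00000056234, chr14:32159865-32179855, plus strand) encodes the receptor that carries ferritin to the lysosome for breakdown. It had 101, 109 and 93.6 CPM with C2S and 108, 98.7 and 98.3 CPM in PM_control. The groups overlapped throughout, and the means were 101 ± 7.52 and 102 ± 5.26 CPM (SD, n = 3 each). Its log2 fold change was -0.0065 with a 95% interval of -0.16 to 0.15 (edgeR adjusted p = 0.943), and its sign depends on the normalization. A pseudogene, Gm6768, held 0.451% to 1.12% as many counts.

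Pcbp1 (ENSMUSG00000051695, chr6:86524492-86526321, minus strand), an RNA-binding protein that also delivers iron to ferritin, was the more strongly lowered of the 2 genes called lower. It had 231, 229.5 and 232 CPM with C2S, against 374, 376 and 386 CPM in PM_control. The groups lay far apart, and the C2S mean of 231 ± 1.14 CPM was 60.9% of the PM_control mean of 379 ± 6.6 CPM (SD, n = 3 each). The log2 fold change was -0.71 ± 0.05 (SE; 95% interval -0.83 to -0.60; edgeR adjusted p = 1.07e-08). Pcbp1 has 1 exon. The 191 tested protein-coding genes of the nuclear genome with 1 exon had a median log2 fold change of -0.48, with 48.7% called lower. Among those with 10 or more exons these values were 0.06 and 25.3%. What the exon number has to do with its value was not tested. An antisense gene, 1600020E01Rik, shares 4.1% of its exon length and held 46, 49 and 46 counts with C2S and 35, 32 and 19 in PM_control.

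Its paralog Pcbp2, another iron chaperone, went the other way. It averaged 612 ± 21.5 CPM with C2S and 412 ± 1.78 CPM in PM_control (SD, n = 3 each), and was higher by 0.57 ± 0.06 in log2 (SE; adjusted p = 2.36e-07 by edgeR). The Pcbp2 value is uncertain, since 30.2% of its exon length overlaps Map3k12.

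Tfrc, Slc11a2 and Slc11a1 were all higher with C2S in CPM. Tfrc (ENSMUSG00000022797, chr16:32608920-32632794, plus strand), the transferrin receptor whose transcript carries the 4 hairpins printed above, had 527, 583 and 487 CPM with C2S, against 409, 395 and 391 CPM in PM_control. The lowest C2S library exceeded the highest PM_control library. The means were 532 ± 48.1 and 398 ± 9.6 CPM (SD, n = 3 each), with a log2 fold change of 0.42 ± 0.07 (SE; 95% interval 0.28 to 0.56; edgeR adjusted p = 4.79e-05). In TPM, Tfrc stood at 160.2, 183 and 151 with C2S and at 139.6, 134 and 128.5 in PM_control.

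Tfrc belongs to the tenth of genes with the lowest GC content, whose median log2 fold change was -0.30, against 0.15 in the tenth with the highest. With each library's trend over GC content removed, the log2 fold change of Tfrc was 0.73 in place of 0.42. In the same fit Slc11a1 was at 0.79, Ftl1 at 0.30, Fth1 at 0.26, Slc11a2 at 0.24 and Pcbp1 at -0.87, all still called.

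Slc11a2 (ENSMUSG00000023030, chr15:100387898-100425072, minus strand), the divalent metal transporter DMT1 of the endosome, had 63.4, 71.5 and 71.0 CPM with C2S, against 56.5, 57.8 and 52.2 CPM in PM_control. The groups did not overlap, and the means were 68.6 ± 4.57 and 55.5 ± 2.97 CPM (SD, n = 3 each). The log2 fold change was 0.30 ± 0.08 (SE; 95% interval 0.13 to 0.48; edgeR adjusted p = 0.00478). In TPM the values were 43.9, 40.7 and 46.0 with C2S and 38.2, 34.1 and 49.0 in PM_control, which overlap, and the limma adjusted p on log2(TPM + 1) was 0.509. The transcript length that RSEM assigned to Slc11a2 was 2297, 2778 and 2426 bases with C2S and 2548, 2821 and 1867 bases in PM_control, so PM_control replicate 3, which had the lowest CPM, had the shortest length and the highest TPM.

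Slc11a1 (ENSMUSG00000026177, chr1:74375195-74386062, plus strand), the related transporter NRAMP1 of the phagosome membrane, showed the largest change of the 10 in the edgeR fit, though with the GC trend removed Pcbp1 changed more. It had 52.9, 57.6 and 50.0 CPM with C2S, against 29.1, 29.9 and 25.2 CPM in PM_control. The C2S mean of 53.5 ± 3.8 CPM was 1.91 times the PM_control mean of 28.1 ± 2.53 CPM (SD, n = 3 each). In the fit the log2 fold change was 0.93 ± 0.09 (SE; 95% interval 0.73 to 1.13; edgeR adjusted p = 3.38e-07). In TPM it stood at 74.1, 64.3 and 71.9 with C2S and at 49.1, 39.1 and 42.5 in PM_control, also without overlap. BALB/c mice carry an allele of Slc11a1 whose protein does not work, so its RNA level is not a measure of transport.

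Slc40a1 (ENSMUSG00000025993, chr1:45908068-45926523, minus strand), which encodes ferroportin, was barely detected. Its expected counts were 21, 25 and 6 with C2S and 27, 11 and 9 in PM_control, or 2.06, 3.01 and 0.679 CPM against 2.48, 1.11 and 0.945 CPM. Each group held both high and low libraries. The means were 1.92 ± 1.17 CPM with C2S and 1.51 ± 0.841 CPM in PM_control (SD, n = 3 each), and the log2 fold change of 0.31 had a 95% interval of -0.72 to 1.35 (edgeR adjusted p = 0.61). Without C2S replicate 2 it was -0.13. That interval includes a 2-fold increase, so a change of that size is not excluded.

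The sensors did not move together. Ireb2 (ENSMUSG00000032293, chr9:54863789-54912530, plus strand) encodes iron regulatory protein 2, which is destroyed when iron is plentiful. It had 94.2, 101.0 and 99.3 CPM with C2S, against 129.6, 125 and 127 CPM in PM_control. The C2S libraries were all lower, and their mean of 98.2 ± 3.53 CPM was 77.2% of the PM_control mean of 127 ± 2.24 CPM (SD, n = 3 each). The log2 fold change was -0.37 ± 0.06 (SE; 95% interval -0.51 to -0.24; edgeR adjusted p = 8.01e-05).

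That call for Ireb2 ended when the trend over GC content was removed, where its log2 fold change was -0.03 with an edgeR adjusted p of 0.731. Like Tfrc, Ireb2 lies in the tenth of genes lowest in GC, where 51.9% of the nuclear protein-coding genes were called lower. Ireb2 was the only one of the 7 called genes to lose its call with the GC trend removed. The part of GC content in its value was not tested beyond this fit.

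Aco1 (ENSMUSG00000028405, chr4:40143081-40198338, plus strand), cytosolic aconitase, becomes iron regulatory protein 1 when it loses its iron-sulfur cluster. It had 65.2, 69.4 and 64.2 CPM with C2S, against 71.2, 66.0 and 63.2 CPM in PM_control. The groups overlapped, with means of 66.3 ± 2.74 and 66.8 ± 4.07 CPM (SD, n = 3 each). Its log2 fold change was -0.01 with a 95% interval of -0.18 to 0.15 (edgeR adjusted p = 0.898).

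**Figure D3:**
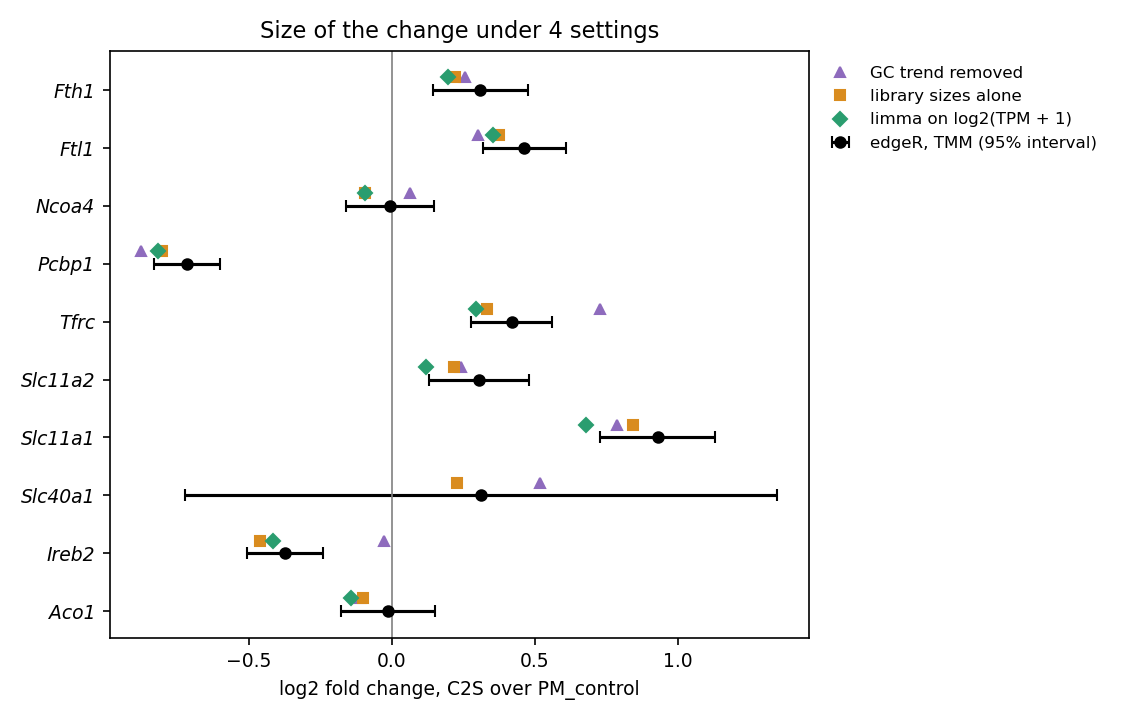
Log2 fold change, C2S over PM_control, of the 10 genes in the edgeR fit with TMM (black, with 95% intervals) and under 3 other settings (coloured). Slc40a1 has no value on log2(TPM + 1), since it fell below the mean of 1 TPM required there. Ireb2 moves to -0.03 and Tfrc to 0.73 with the GC trend removed, and Slc40a1 has the widest interval, -0.72 to 1.35.

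Ordered by TPM, which is per length, the genes kept much the same order with C2S and in PM_control. Fth1 and Ftl1 stood far above the rest, at means of 14482 ± 1419 and 10924 ± 703 TPM with C2S and 12619 ± 934 and 8546 ± 114 TPM in PM_control (SD, n = 3 each). Pcbp1 came next, at 208 ± 0.995 TPM with C2S and 367 ± 4.41 TPM in PM_control, and then Tfrc, at 165 ± 16.5 TPM with C2S and 134 ± 5.57 TPM in PM_control. Slc11a1 followed with C2S at 70.1 ± 5.14 TPM, ahead of Ncoa4 at 53.5 ± 4.23 TPM, while in PM_control Ncoa4 at 57.1 ± 2.9 TPM stood ahead of Slc11a1 at 43.5 ± 5.06 TPM. Slc11a2, at 43.5 ± 2.68 TPM with C2S and 40.4 ± 7.69 TPM in PM_control, was within the spread of Slc11a1 in PM_control. Aco1, at 26.3 ± 1.38 TPM with C2S and 29.2 ± 3.33 TPM in PM_control, and Ireb2, at 26.1 ± 1.52 TPM with C2S and 35.2 ± 1.23 TPM in PM_control, lay next, with overlapping values between the pair in C2S cells. Slc40a1 was last, at 1.24 ± 1.11 TPM with C2S and 0.737 ± 0.412 TPM in PM_control.

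Ratios within a library do not depend on a scaling factor per library, though a trend over GC content moves them, and 6 pairs with opposed or parallel roles were compared in TPM. An exact two-sided permutation test of 3 against 3 libraries cannot give a p below 0.1, so none could pass 0.05. The Slc11a1/Slc11a2 ratio was 1.69, 1.58 and 1.56 with C2S, against 1.28, 1.15 and 0.867 in PM_control, without overlap (exact p = 0.1, adjusted 0.2 over the 6 ratios). The Ireb2/Aco1 ratio was 0.976, 1.00 and 1.01 with C2S, against 1.11, 1.23 and 1.30 in PM_control, again without overlap (exact p = 0.1, adjusted 0.2). Its direction turned with the GC trend removed, where the ratio was 1.15, 1.14 and 1.19 with C2S and 0.956, 1.09 and 1.07 in PM_control. The difference in log2 means was -0.28 as deposited and 0.16 in that setting. Ncoa4 relative to Fth1 was lower with C2S in every library, at 0.00366, 0.00353 and 0.00391, against 0.0045, 0.00406 and 0.00507 in PM_control (exact p = 0.1, adjusted 0.2). With the GC trend removed the Ncoa4/Fth1 groups overlapped and the log2 difference was -0.17, against -0.29 as deposited.

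The remaining ratios overlapped between the groups in deposited TPM. Heavy to light chain, Fth1/Ftl1, was 1.18, 1.59 and 1.24 with C2S and 1.46, 1.59 and 1.38 in PM_control, a difference in log2 means of -0.16 (exact p = 0.3, adjusted 0.45), which was -0.05 with the GC trend removed. Uptake against storage, Tfrc/Fth1, differed by 0.10 on the log2 scale (exact p = 0.4, adjusted 0.48), and both of its genes were higher with C2S in CPM. With the GC trend removed the Tfrc/Fth1 difference was 0.46, without overlap (exact p = 0.1). Uptake against export, Tfrc/Slc40a1, ran from 74.2 to 488 with C2S and from 115 to 279 in PM_control (exact p = 1), with only 6 to 27 counts of Slc40a1 behind each value.

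**Figure D4:**
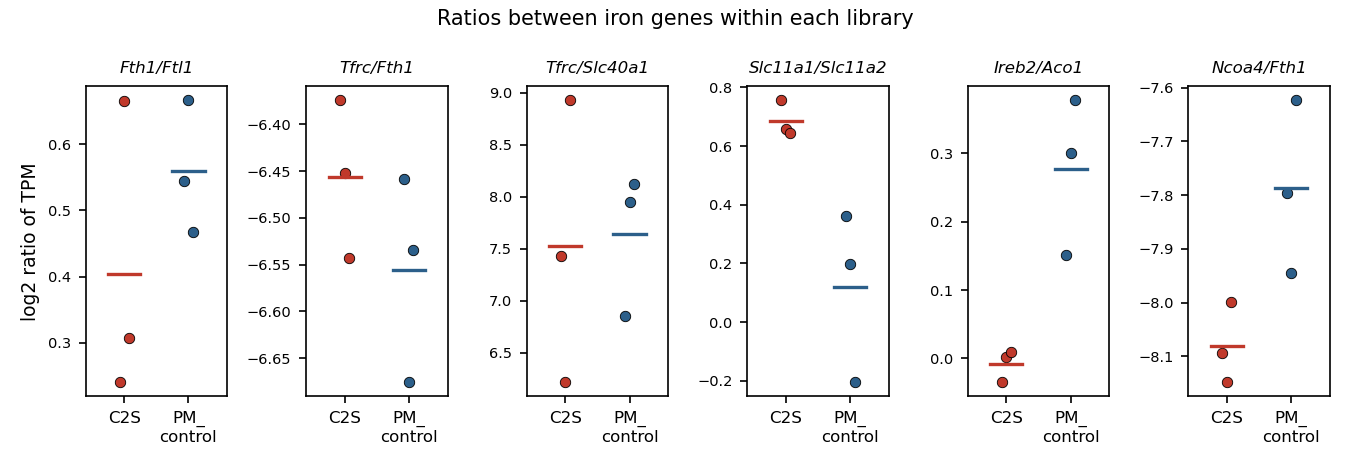
Log2 ratio of TPM between 6 pairs of iron genes in each of 3 C2S and 3 PM_control libraries (points), with group means as lines. The groups do not overlap for Slc11a1/Slc11a2, Ireb2/Aco1 and Ncoa4/Fth1, and overlap for the other 3 pairs; each axis has its own range.

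The 10 genes sit among 108 genes of iron and heme handling in 10 lists, of which 90 were tested, 32 were higher with C2S and 13 lower. That is 50.0% called, against 55.4% of all genes tested (27.0% higher and 28.4% lower), with a median log2 fold change of 0.13 against -0.0021. On log2(TPM + 1) limma called 19 of these genes higher, and with library sizes alone edgeR called 20 lower. Leaving out Cybrd1, Trf and Bdh2, which passed the low-count filter through libraries of 1 group alone, 30 of 87 were higher and 12 lower. Without the 10 genes themselves, 27 of 80 were higher and 11 lower, with a median of 0.11.

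Genes of ferritin storage and turnover were mostly higher: 7 of 9 tested rose, 1 fell, and the median log2 fold change was 0.46, though 4 of the 9 are among the 10 genes above. Over all genes tested, 27.0% were higher and 28.4% lower. On log2(TPM + 1) limma called 5 genes of this list higher and 1 lower. Rb1cc1, a scaffold that starts autophagy, averaged 34.6 ± 1.49 CPM with C2S and 18.4 ± 1.88 CPM in PM_control (SD, n = 3 each; log2 fold change 0.92, edgeR adjusted p = 1.72e-06), but on log2(TPM + 1) its limma adjusted p was 0.619. Atg9a, a membrane protein of early autophagosomes, averaged 92.6 ± 5.09 CPM with C2S and 58.1 ± 5.55 CPM in PM_control (SD, n = 3 each; edgeR adjusted p = 3.47e-06), a value made uncertain by the 31.8% of its exon length shared with Gm29253. The mitochondrial ferritin Ftmt was at 0 in every library.

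In the transferrin cycle and in endosomal and lysosomal uptake, 10 of 14 tested genes were higher and 3 lower, with a median of 0.33. The shares over all genes tested were 27.0% higher and 28.4% lower. On log2(TPM + 1) limma called 3 genes of this list higher and 2 lower. Without Cybrd1 and Trf, which passed the low-count filter through C2S libraries alone, 8 of 12 were higher and the median was 0.29. Cybrd1, a membrane ferric reductase, had 26, 16 and 25 counts with C2S, against 2, 0 and 0 in PM_control. It had to be higher with C2S to pass the filter, so no test is given. Slc39a14, the zinc and iron importer ZIP14, was lower, at 109 ± 4.03 CPM with C2S and 136 ± 9.47 CPM in PM_control (SD, n = 3 each; log2 fold change -0.32, edgeR adjusted p = 0.000708). Steap3, the endosomal ferric reductase that works beside Tfrc, was also lower, at 32.6 ± 3.41 CPM with C2S and 40.5 ± 2.34 CPM in PM_control (SD, n = 3 each; edgeR adjusted p = 0.0116), though on log2(TPM + 1) its limma adjusted p was 0.127. March8, a ubiquitin ligase that acts on Tfrc, changed by -0.19 in log2 (adjusted p = 0.0289 by edgeR), a difference that DESeq2 did not call (adjusted p = 0.062). Without C2S replicate 1 its edgeR adjusted p was 0.0974, without C2S replicate 3 it was 0.0969, without PM_control replicate 2 it was 0.0721 and without PM_control replicate 3 it was 0.0642. Steap2 and Steap4 were at 0 in every library.

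Of the export and hepcidin genes, 4 of 9 were tested and 1 was called, against 55.4% called of all genes tested. That gene was Neo1, a receptor for hemojuvelin, at 12.4 ± 1.8 CPM with C2S and 8.9 ± 1.4 CPM in PM_control (SD, n = 3 each; edgeR adjusted p = 0.0262), and it lost its call on library sizes alone (0.0627) and on log2(TPM + 1) (0.286). Without C2S replicate 1 the adjusted p of Neo1 was 0.0647, without C2S replicate 2 it was 0.088, without PM_control replicate 1 it was 0.0734 and without PM_control replicate 3 it was 0.11. Hamp, Hfe2, Bmp6 and Tmprss6, which make or control hepcidin, were at 0 in every library.

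Among the 6 iron sensing genes, 2 were lower and none higher, against 28.4% lower and 27.0% higher among all genes tested. With the GC trend removed, none was lower and 1 was higher. The gene called lower beside Ireb2 was Fbxl5, the iron-binding ligase subunit that marks iron regulatory protein 2 for destruction. It was at 27.4 ± 1.87 CPM with C2S and 36.3 ± 2.39 CPM in PM_control (SD, n = 3 each). Fbxl5 changed by -0.40 in log2 (edgeR adjusted p = 0.00204). Like Ireb2 it is low in GC, and with the GC trend removed its log2 fold change was -0.17 (edgeR adjusted p = 0.149). Its partners Skp1a, Cul1 and Rbx1 did not pass the test, and Rbx1 was the gene called higher with the GC trend removed (log2 fold change 0.35, edgeR adjusted p = 0.00261).

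In heme uptake, export and breakdown 5 of 10 tested genes were higher and none lower, with a median of 0.38. Among all genes tested, 27.0% were higher and 28.4% lower. In this list 2 were lower on library sizes alone and without PM_control replicate 1, and 1 was lower on TPM and with the GC trend removed. Hmox1, the oxygenase that frees iron from heme, had 446, 370.4 and 357 CPM with C2S, against 118, 127 and 111 CPM in PM_control. Every C2S library was well above every PM_control library, by 1.72 ± 0.08 in log2 (SE; adjusted p = 2.2e-11 by edgeR). Bach1, the heme-binding repressor of Hmox1, was higher too, at 84.3 ± 9.17 CPM with C2S and 29.6 ± 1.12 CPM in PM_control (SD, n = 3 each; log2 fold change 1.51, edgeR adjusted p = 5.85e-10). Lrp1, a receptor for heme bound to hemopexin among many ligands, averaged 3406 ± 96.3 CPM with C2S and 2294 ± 228 CPM in PM_control (SD, n = 3 each; edgeR adjusted p = 4.51e-06). The hemoglobin receptor Cd163 and Spic, a factor of red pulp macrophages, were at 0 in every library.

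In heme synthesis 3 of 12 tested genes were higher and none lower, with a median of 0.11, against 27.0% higher and 28.4% lower of all genes tested. The counts depended on the setting, with 1 higher and 3 lower on library sizes alone, 1 higher and 2 lower with the GC trend removed, and 1 higher and 1 lower without C2S replicate 1 or PM_control replicate 1. Alas1, its rate-limiting enzyme outside the red cell lineage, averaged 76.9 ± 5.74 CPM with C2S and 44.2 ± 10.9 CPM in PM_control (SD, n = 3 each; log2 fold change 0.80, edgeR adjusted p = 5.35e-05). Tmem14c, a mitochondrial membrane protein of heme synthesis, was higher by 0.18 in log2 (adjusted p = 0.0342 by edgeR), and its call was lost on library sizes alone (0.254) and on log2(TPM + 1) (0.438). It was also lost without C2S replicate 1 or 3 or PM_control replicate 1 or 3 (edgeR adjusted p 0.0641 to 0.147).

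Mitochondrial iron import and iron-sulfur assembly moved both ways, with 3 of 19 genes higher, 4 lower and a median of -0.08. Higher and lower shares over all genes tested were 27.0% and 28.4%. Without PM_control replicate 3, 2 genes of the list were higher and 2 lower. The paired importers of iron into mitochondria went in opposite directions. Slc25a28 was higher, at 28.7 ± 0.433 CPM with C2S and 20.9 ± 1.8 CPM in PM_control (SD, n = 3 each; edgeR adjusted p = 0.00143). Slc25a37 was lower, at 57.2 ± 0.724 CPM with C2S and 72.6 ± 6.66 CPM in PM_control (SD, n = 3 each; edgeR adjusted p = 0.0021), with a limma adjusted p of 0.165 on log2(TPM + 1). Fdxr, which feeds electrons to cluster assembly, was higher (log2 fold change 0.85, edgeR adjusted p = 1.68e-05), and Isca1, a late assembly factor, was lower (log2 fold change -0.46, edgeR adjusted p = 0.000337). The chaperone Hspa9 was called higher at 0.15 and Iba57, a partner of Isca1, lower at -0.59 (edgeR adjusted p = 0.0433 and 0.0179), and both lost their calls on log2(TPM + 1) (0.525 and 0.0643). The Hspa9 call was also lost without any single library other than C2S replicate 3 (edgeR adjusted p 0.0664 to 0.164), and the Iba57 call without C2S replicate 1 (0.0998) or PM_control replicate 3 (0.0541).

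In cytosolic iron-sulfur assembly 1 of 11 genes was higher and 2 were lower, with a median of -0.05, against 27.0% higher and 28.4% lower of all genes tested. Ciao2b, a targeting subunit, was higher (log2 fold change 0.41, edgeR adjusted p = 0.00169), while Narfl and Ciao2a were lower (log2 fold changes -0.44 and -0.24, edgeR adjusted p = 0.00124 and 0.00437). Ciao2a lost its call with the GC trend removed (edgeR adjusted p = 0.0599). In the siderophore route of 3 genes, Bdh2, a dehydrogenase tied to a mammalian siderophore, had 7, 1 and 8 counts with C2S and 14, 16 and 19 in PM_control. It passed the low-count filter through PM_control libraries alone, so no test is given, and of the other 2 genes none was called.

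Of 10 transcripts known to carry an iron-responsive element, 7 were tested, 6 were higher with C2S and none lower, with a median of 0.37. Of all genes tested, 27.0% were higher and 28.4% lower. On log2(TPM + 1) limma called 4 of the listed transcripts higher. Of these 7, 5 are genes described above, so the count is largely theirs. Cdc14a, a phosphatase, was also called higher (log2 fold change 0.62, edgeR adjusted p = 0.00201). Cdc42bpa was at 0 in every library. Beside the hairpins printed above, the log2 fold changes were 0.31 for Fth1 and 0.46 for Ftl1, with the element ahead of the coding sequence, and 0.42 for Tfrc, with it behind.

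**Figure D5:**
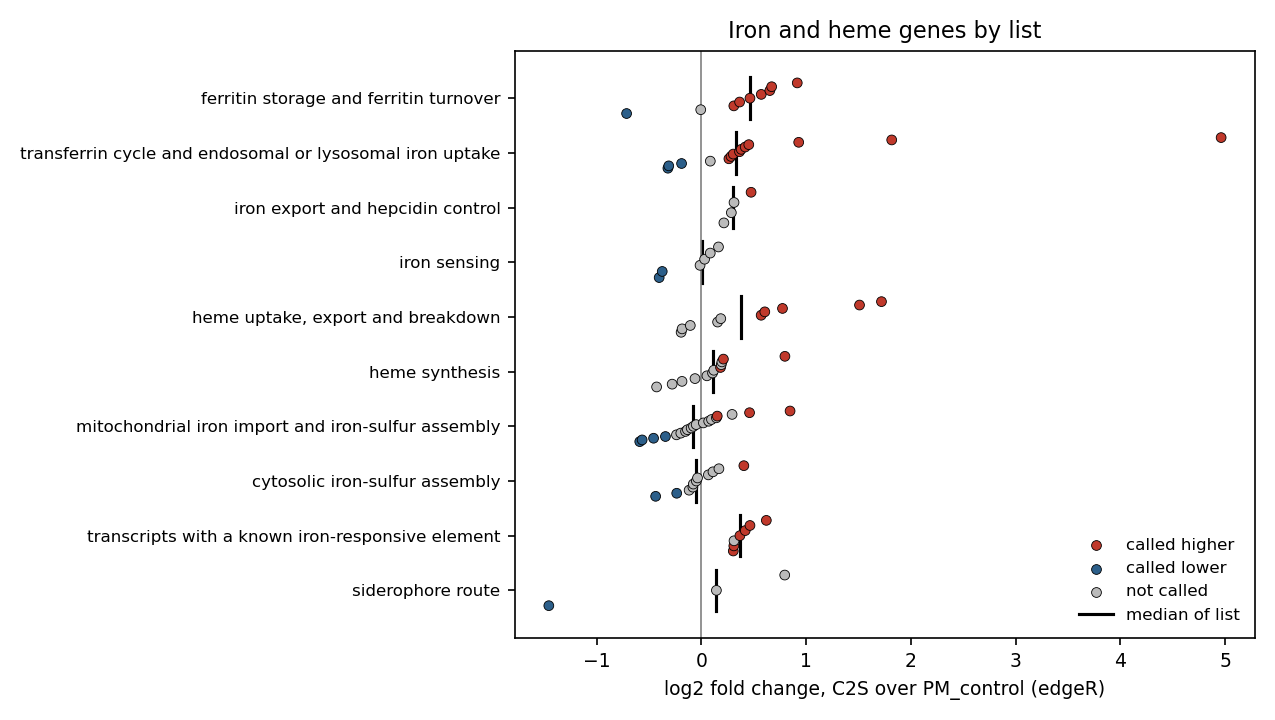
Log2 fold change, C2S over PM_control, of each tested gene (points) in 10 iron and heme lists, with the list median as a black line, red for genes called higher, blue for genes called lower and grey for the rest. Ferritin, uptake and heme breakdown genes lie mostly to the right of 0, with Cybrd1 farthest, and iron-sulfur assembly genes lie on both sides.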

How the data were processed

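RNA of 3 C2S and 3 PM_control libraries was measured by RNA-seq (Illumina TruSeq kit, HiSeq). Reads were trimmed with fastp, aligned to mm10 with STAR and counted with RSEM, per the series design text and the submitters' processing notes. The sources used here give no version, annotation release or strand setting. The authors deposited per gene an expected count, RSEM's estimate after sharing out reads that map to several genes, per the file headers. TPM was deposited too, a level corrected for length and depth, as were FPKM values, which were left unused. Symbols matched 52403 of 52636 IDs. Coordinates, exons, GC content and sequences came from GENCODE M21 (GRCm38), which may differ from the authors' annotation.

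Expected counts were rounded, and filterByExpr with a minimum count of 10 and a minimum total of 15 kept 11561 genes. These were tested in R 4.3.3 with the quasi-likelihood F test of edgeR 4.0.16 (with limma 3.58.1) after TMM scaling, with group alone in the model. P-values were adjusted over all tested genes by Benjamini-Hochberg at 0.05. The biological coefficient of variation was 7.52%. The SE is the log2 fold change divided by the square root of F, and CPM is TMM-scaled. A gene sharing at least 10% of its exon length with another, on either strand, is given as uncertain. Libraries of a group differed by more than sampling noise in a chi-square test, so none was treated as a copy of another; that does not show separate cultures. The fit was tested on simulated data with 50 planted changes of each size. It recovered 34% of them at 1.25-fold, 78% at 1.5-fold and 90% at 2-fold. Of its calls there, 6.79% were of genes without a planted change. The simulation differed from the data, since 11179 of its tested genes had no planted change while 55.4% of genes were called in the data. Its planted changes lay only in genes above a minimum mean count, which Slc40a1 does not reach. These rates may therefore not hold for the data, least of all for genes with few counts.

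The 10 genes, the lists and the tests were chosen with earlier results of these data known. Named from each list were up to 3 called genes per direction by adjusted p, genes at 0 in every library, and Pcbp2, Fbxl5, Hmox1 and Bach1. Some genes that this rule names are not reported here. Neighbouring genes, gene copies, Trf, Skp1a, Cul1 and Rbx1 were named after their values were seen. Alternatives were RLE, upper quartile and library-size scaling, DESeq2 1.42.0, limma-voom, limma on log2(TPM + 1) and log2(TPM + 0.1), other filters, a replicate block, leaving out each library or the 10 most abundant genes, removing each library's GC trend, and adding pseudogene counts. Summing Ftl1 with Gm10252 and Ftl1-ps1, ratios with the GC trend removed, and lists without genes that passed the filter in 1 group only were chosen after seeing the data.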

Additional observations from a re-analysis of the deposited data

How the results depend on the processing

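Leaving out 1 library at a time kept 5 of the 10 genes called higher and 2 lower in every case, while all genes called ran from 5901 to 6338 and the listed genes from 26 to 32 higher and 9 to 17 lower. The log2 fold changes that turned sign in this way were those of genes that did not pass the test: Slc40a1 ran from -0.13 to 0.88, Aco1 from -0.0553 to 0.0319 and Ncoa4 from -0.0603 to 0.0478, and the Tfrc/Slc40a1 difference from -0.82 to 0.54. Ncoa4 was also at 0.0064 with RLE and DESeq2 and at 0.0629 with the GC trend removed. The Tfrc/Slc40a1 difference was 0.18 in CPM, with or without pseudogenes or the copies of Ftl1 added, and 0.0209 with TPM + 1, and the Ireb2/Aco1 difference turned to 0.1603 with the GC trend removed, a setting chosen for the ratios after seeing the data. On log2(TPM + 1) and log2(TPM + 0.1), 1717 and 1705 genes were called higher, 19 listed genes and 3 of the 10 iron genes. Slc40a1 was not tested on these 2 scales, since it fell below the mean of 1 TPM required there. Fth1 was at 0.20 in both (limma adjusted p = 0.131 and 0.126) and Slc11a2 at 0.12 in both (0.509 and 0.506). Without the 10 most abundant genes, 3 iron genes were called higher because Fth1 and Ftl1 were among those left out. With the GC trend removed, 1 iron gene was called lower, since Ireb2 was at -0.0269 (adjusted p = 0.731). On library sizes alone, 20 listed genes were lower. The cause was not tested for the other changes. With no filter on low counts the median of all genes was 0.10.

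The replicate numbers share only a number: deviations of same-numbered libraries correlated at -0.01, 0.07 and 0.03, and C2S replicate 1 correlated best with PM_control replicate 3 (0.08). With the replicate number as a block, 6489 genes were called, 3192 higher and 3297 lower, with 5 and 2 of the iron genes and 32 and 13 of the listed genes. At 3 libraries a group, a gene with as few counts as Slc40a1 has a wide interval.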
